A study of Homo sapiens with 12 samples.

Results

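The kinesin motor genes of U87 glioblastoma cells were taken by name, as every gene of the count table whose symbol is KIF followed by a number and letter or is KIFC1, KIFC2 or KIFC3. This gave 40 genes of the 35741 in the table. A set of 12 spindle and cytokinesis motors (KIF2C, KIF4A, KIF11, KIF14, KIF15, KIF18A, KIF18B, KIF20A, KIF20B, KIF22, KIF23 and KIFC1), called mitotic kinesins here, was set beside the other 28. The rule uses gene names and known roles, and it was set with earlier results of these data known. The name pattern leaves out CENPE and STARD9, kinesin motors with names of another form. Counts sufficed for a test of 35 of the 40 genes, 11 mitotic and 24 other. KIFC1, KIF12, KIF19, KIF1A and KIF28P were too low.

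Kinesins are proteins that walk along microtubules or take them apart at their ends, using the energy of ATP. One group acts on the spindle: its members separate the poles, move and align chromosomes, and build the midzone and midbody where the cell divides. Their transcripts are known to accumulate in the G2 and M phases of the cell cycle, so dividing tumour cells carry more of them than resting cells. The other group carries vesicles, organelles and ciliary cargo or tunes microtubule growth, and several of its members are best known from neurons.

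The libraries were poly(A)-selected mRNA from U87, an established human glioblastoma cell line. The cells were given anti-seed peptide nucleic acids, short synthetic strands on a peptide-like backbone that pair with the seed of a microRNA. sgPNA-10b is directed at miR-10b and sgPNA-21 at miR-21, both raised in glioblastoma and treated as oncogenic. Groups were PNA-10b (150 nM sgPNA-10b), PNA-21 (150 nM sgPNA-21), PNA-10b+21 (150 nM of each), and Control (untreated U87, labelled wild type), with 3 libraries each. Treated cells took the strands up in bioadhesive nanoparticles for 72 h and are labelled knockdown. No time is given for Control, so time and treatment cannot be told apart against it. PNA-10b+21 cells were given more strand in total than either single group, so total dose and combination cannot be told apart. The labels name no group with empty nanoparticles or a control strand, so carrier and sequence effects cannot be told apart against Control. They do not say whether the 3 libraries of a group came from separate cultures, so p-values measure the spread between these libraries, which may be technical. The 3 comparisons with Control share the same Control libraries.

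The targeted microRNAs are not measured by this assay. The mature miR-21-5p, from RefSeq (GRCh38.p14, chr17:59841273-59841294, plus strand), is shown because sgPNA-21 is directed at its seed, bases 2 to 8, in capitals:
hsa-miR-21-5p: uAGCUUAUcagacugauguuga

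Each library held 12846676 to 18305820 counts. Values per library are library-size-scaled counts (CPM, with edgeR's TMM factors), and ± beside a log2 fold change is the standard error of the fit. The words rose and fell are used where edgeR's quasi-likelihood test passed at 0.05 after Benjamini-Hochberg adjustment across the 15715 genes tested. Of 8 markers of mesenchymal glioblastoma, 7 stood at 267 CPM or higher in every library, among them VIM at 1540 to 1970 CPM, and NES stood at 10.6 to 16.5 CPM. The glial markers SOX2 (0 to 0.118 CPM) and S100B (0 to 0.268 CPM) were near 0, and GFAP (1.5 to 4.89 CPM) and OLIG2 (1.29 to 3.19 CPM) were low. Of the neuronal markers, RBFOX3 stood at 0.0683 to 0.625 CPM, SYT1 at 2.39 to 4.23 CPM and SNAP25 at 60.8 to 86.7 CPM. In bulk RNA, fewer cells of a kind and less RNA per cell cannot be told apart.

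Most mitotic kinesins rose in the treated groups, among them motors of the poles, the chromosomes and the midzone, while KIF20A did not pass the test in any. Of the 11 tested, 6 rose with PNA-10b, 9 rose with PNA-21 and 9 rose with PNA-10b+21 against Control, and none fell. Of all genes tested, 2.75% rose and 3.74% fell in PNA-10b, 15.2% rose and 14.6% fell in PNA-21, and 13.6% rose and 13.4% fell in PNA-10b+21. The median log2 fold change of the 11 was 0.24 for PNA-10b, 0.27 for PNA-21 and 0.37 for PNA-10b+21, while the medians over all genes tested were -0.0015, -0.0062 and -0.0033. Counted by library, all 3 treated values lay above all 3 Control values for 7 of 11 mitotic kinesins with PNA-10b, 9 with PNA-21 and 9 with PNA-10b+21. The same held for 11.0%, 21.5% and 20.3% of all genes tested in those comparisons.

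Summed over the 12 genes, mitotic kinesin RNA stood at 866, 892 and 810 CPM with PNA-10b, 867, 904 and 857 CPM with PNA-21 and 942, 931 and 862 CPM with PNA-10b+21, against 729, 767 and 705.0 CPM in Control. Every treated library was above every Control library, with 810 CPM as the lowest treated sum and 767 CPM as the highest Control sum. The other 28 genes summed to between 1690.3 and 1789.7 CPM in PNA-10b, between 1696.8 and 1797.5 CPM in PNA-21, between 1757.6 and 1784.2 CPM in PNA-10b+21 and between 1693.0 and 1761.3 CPM in Control. Those ranges overlapped in every comparison with Control.

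Among motors of the spindle poles and plus ends, KIF18B, which acts at the plus ends of astral microtubules, moved most. It had 49.1, 53.0 and 51.9 CPM in the PNA-10b libraries, 57.1, 62.9 and 57.8 CPM in the PNA-21 libraries and 66.8, 60.3 and 60.5 CPM in the PNA-10b+21 libraries, against 44.2, 43.7 and 36.5 CPM in the Control libraries. No treated library reached down to the Control range, and the PNA-10b libraries lay below all 6 libraries that received sgPNA-21. KIF18B rose by 0.30 ± 0.07 log2 units in PNA-10b, 0.51 ± 0.07 with PNA-21 and 0.59 ± 0.07 with PNA-10b+21 (edgeR adjusted p = 0.0121, 1.79e-05 and 2.91e-06). KIF11, the bipolar motor that slides antiparallel microtubules apart to separate the poles, had 97.7, 101 and 93.2 CPM with PNA-10b, 98.6, 101 and 96.3 CPM with PNA-21 and 104, 100.4 and 95.4 CPM with PNA-10b+21, and 77.2, 87.9 and 72.7 CPM in Control. Its 9 treated values stayed within 93.2 to 104 CPM, all above the highest Control value of 87.9 CPM. KIF11 rose by 0.29 ± 0.06, 0.31 ± 0.06 and 0.33 ± 0.06 log2 units in PNA-10b, PNA-21 and PNA-10b+21 (edgeR adjusted p = 0.00635, 6.97e-04 and 3.99e-04). KIF18A, which damps chromosome oscillations at kinetochore fibre ends, rose by 0.26 ± 0.06 with PNA-21 and 0.20 ± 0.06 with PNA-10b+21 and had a log2 fold change of 0.14 ± 0.06 in PNA-10b (edgeR adjusted p = 0.171). Its rise in PNA-10b+21 was lost without Control replicate 1 (0.18) or Control replicate 3 (0.15).

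Among motors of chromosomes and centromeres, KIF2C, a depolymerase that corrects faulty kinetochore attachments, had 81.1, 83.2 and 73.0 CPM in the PNA-10b libraries, 79.3, 85.2 and 77.7 CPM in the PNA-21 libraries and 91.3, 90.5 and 81.4 CPM in the PNA-10b+21 libraries, against 65.6, 68.1 and 67.1 CPM in the Control libraries. The treated values all exceeded the Control values, which ran from 65.6 to 68.1 CPM. KIF2C rose by 0.24 ± 0.06, 0.27 ± 0.06 and 0.39 ± 0.06 log2 units in PNA-10b, PNA-21 and PNA-10b+21. KIF22, a chromokinesin that pushes chromosome arms away from the poles, rose by 0.23 ± 0.06, 0.35 ± 0.06 and 0.37 ± 0.06 in the same order. KIF4A, a chromokinesin that also works with PRC1 in the spindle midzone, had 98.8, 92.9 and 78.7 CPM with PNA-10b, 98.1, 93.6 and 89.6 CPM with PNA-21 and 107, 107 and 95.9 CPM with PNA-10b+21, and 76.1, 81.7 and 77.6 CPM in Control. PNA-21 and PNA-10b+21 did not overlap Control, whereas PNA-10b spread widely. KIF4A rose by 0.26 ± 0.07 with PNA-21 and 0.40 ± 0.07 with PNA-10b+21 and stood at 0.20 ± 0.07 in PNA-10b (edgeR adjusted p = 0.102).

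Among the cytokinesis motors, KIF23, the motor subunit of centralspindlin, had 132, 134 and 123 CPM in the PNA-10b libraries, 135, 145 and 133 CPM in the PNA-21 libraries and 151, 150.0 and 131 CPM in the PNA-10b+21 libraries, against 105, 116 and 104 CPM in the Control libraries. The 3 groups lay above Control without overlap. KIF23 rose by 0.26 ± 0.06, 0.35 ± 0.06 and 0.41 ± 0.06 log2 units in PNA-10b, PNA-21 and PNA-10b+21 (edgeR adjusted p = 0.0166, 2.91e-04 and 4.86e-05). KIF14, which places citron kinase at the midbody, rose by 0.22 ± 0.06, 0.20 ± 0.06 and 0.21 ± 0.06 in the same order. Its rise in PNA-21 was lost without Control replicate 1 (0.17), Control replicate 3 (0.17) or PNA-21 replicate 3 (0.18), and that in PNA-10b+21 without Control replicate 1 (0.18) or PNA-10b+21 replicate 1 (0.18). KIF20B, a motor of late cytokinesis, rose by 0.25 ± 0.07 with PNA-21 and 0.22 ± 0.07 with PNA-10b+21, and its 0.24 ± 0.07 in PNA-10b just missed the threshold (edgeR adjusted p = 0.0503). The PNA-21 rise was lost without Control replicate 3 (0.16). That in PNA-10b+21 was lost without PNA-10b+21 replicate 1 (0.23), PNA-10b+21 replicate 2 (0.20), Control replicate 1 (0.23) or Control replicate 3 (0.13).

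KIF20A, which carries the chromosomal passenger complex to the midzone, was the exception among well-measured mitotic kinesins. It had 148, 144 and 128 CPM in the PNA-10b libraries, 127, 125 and 125 CPM in the PNA-21 libraries and 145, 144 and 123 CPM in the PNA-10b+21 libraries, against 131, 121 and 131 CPM in the Control libraries. Each treated group overlapped Control, while the PNA-21 libraries lay narrowly below the PNA-10b libraries. That difference was -0.15 log2 units and was not called (edgeR adjusted p = 0.154). Its log2 fold changes were 0.13 ± 0.06, -0.03 ± 0.06 and 0.10 ± 0.06 in PNA-10b, PNA-21 and PNA-10b+21, and edgeR called none of them (adjusted p = 0.265, 0.801 and 0.255), although its level per length was the highest of the set. In PNA-10b+21 it passed without PNA-10b+21 replicate 3 (0.17). The 95% interval of the PNA-21 change ran from -0.16 to 0.11 log2 units. Exons of KIF20A overlap those of BRD8 and CDC23 on the opposite strand, as those of KIF4A do with PDZD11 and of KIF18A with METTL15, and the strand setting of the counting is not given in the sources used here.

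KIF15, which assists KIF11 in keeping the spindle bipolar, was too uneven between replicates for a direction. Its counts were 1, 102 and 22 with PNA-10b, 2, 60 and 1 with PNA-21 and 2, 2 and 58 with PNA-10b+21, against 2, 12 and 1 in Control. In each treated group a single library held most of the reads. Fitted log2 fold changes were 2.92 ± 1.29, 1.94 ± 1.44 and 1.94 ± 1.44, none called by edgeR. With no filter on low counts edgeR called each of them, at 2.93, 1.94 and 1.94, from the same uneven counts. KIFC1, a minus-end motor that gathers spindle poles, had 1 read in 12 libraries, in PNA-10b+21 replicate 2, where a count of 0 allows up to 0.164 to 0.234 CPM depending on the library. Its neighbours on chromosome 6 were also low: TAPBP had 0 to 1 reads a library, PHF1 1 to 13 and DAXX 4 to 25, while BAK1 farther along had 105 to 201. A near absence of KIFC1 reads in this table therefore goes with few reads over part of that locus, and no expression level is read from it.

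**Figure D1:**
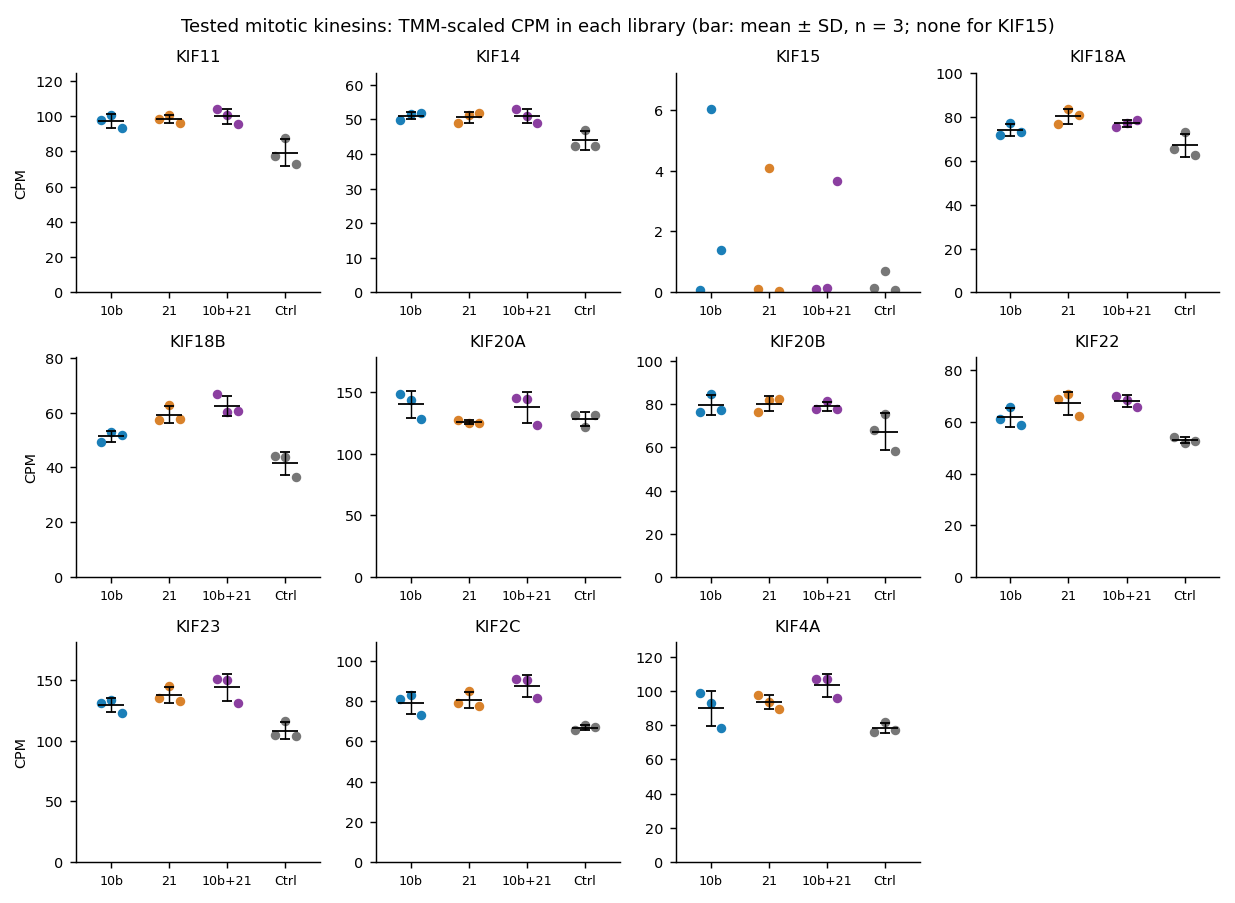
TMM-scaled CPM of the 11 tested mitotic kinesins, 1 panel per gene, with a point for each of the 12 libraries and a bar for the mean ± SD of 3 libraries (none for KIF15). Treated points sit above the Control points for KIF18B, KIF11, KIF23 and KIF2C, and overlap them for KIF20A.

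The calls of the 6 rises in PNA-10b cells depended on single libraries. When PNA-10b replicate 2 was left out, none of the 6 passed the edgeR test, although all kept their direction, with log2 fold changes of 0.28 for KIF18B, 0.26 for KIF11, 0.23 for KIF23, 0.21 for KIF14, 0.20 for KIF2C and 0.18 for KIF22. Leaving out PNA-10b replicate 2 also lowered the calls over all genes tested in this comparison, from 1019 to 306. Without Control replicate 3 the mitotic count was 1 and without Control replicate 1 it was 2. KIF2C was also lost without PNA-10b replicate 1 (0.22), KIF14 without PNA-10b replicate 3 (0.21) and KIF22 without Control replicate 2 (0.21). Of those not called, KIF4A passed without PNA-10b replicate 3 (0.29), and KIF18A and KIF20B without Control replicate 2 (0.21 and 0.33). KIF20B also passed with DESeq2 (0.24). DESeq2 called 7 of the 11 in this comparison. For PNA-21 and PNA-10b+21 the rises of KIF11, KIF18B, KIF22, KIF23, KIF2C and KIF4A passed under every alternative run.

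**Figure D2:**
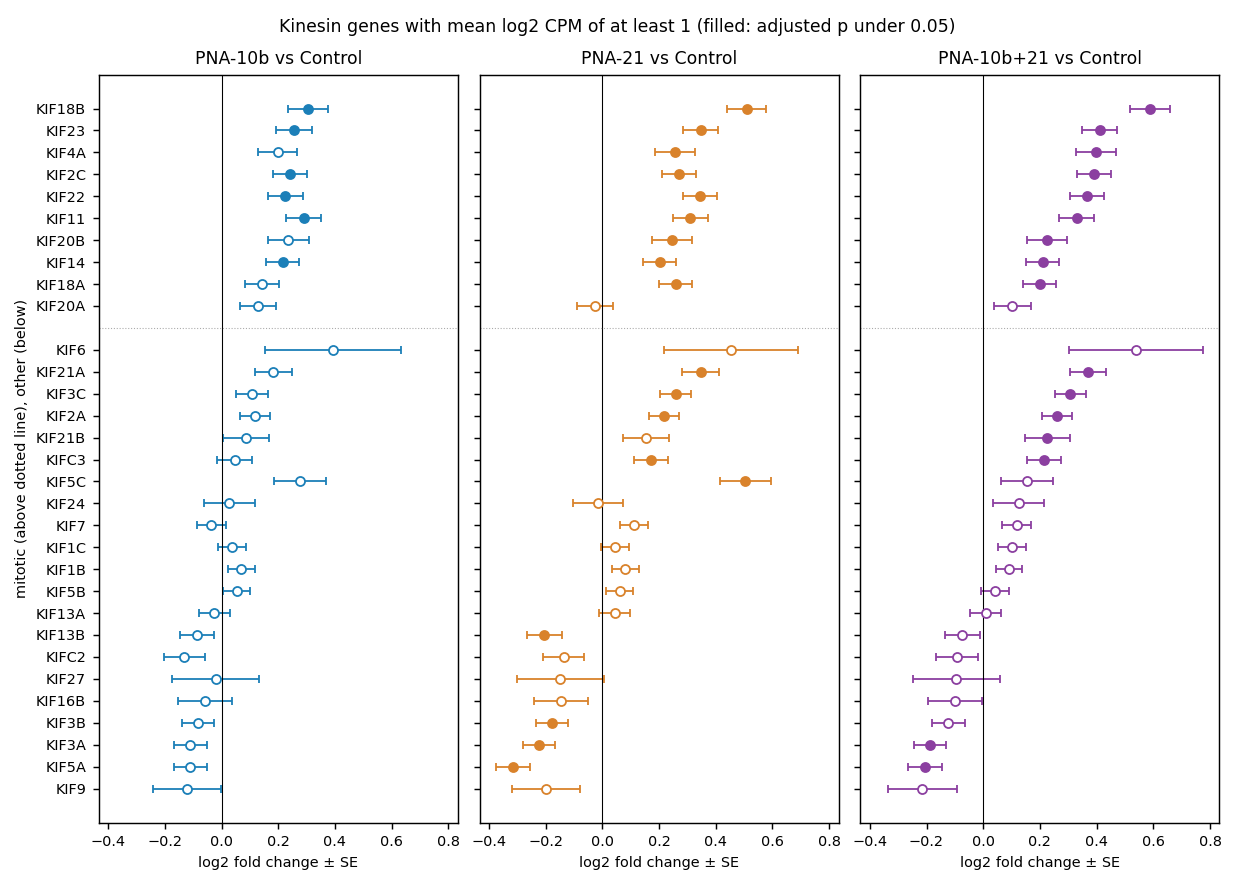
Log2 fold change against Control, with bars of 1 SE, of kinesin genes whose average log2 CPM reached 1, for PNA-10b, PNA-21 and PNA-10b+21 (filled points passed the edgeR test). Mitotic kinesins, above the dotted line, lie right of 0 with the exception of KIF20A in PNA-21 (-0.03), while the other kinesins fall on both sides.

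Genes that mark dividing cells moved with the mitotic kinesins. Of 10 proliferation markers, 7 rose with PNA-10b, 10 with PNA-21 and 10 with PNA-10b+21, with median log2 fold changes of 0.26, 0.28 and 0.35 and none lower. Over all genes tested, 2.75%, 15.2% and 13.6% rose in those comparisons. MKI67, the Ki-67 antigen of cycling cells, had log2 fold changes of 0.27 ± 0.06, 0.29 ± 0.06 and 0.46 ± 0.06, all called. CDK1, the kinase that drives entry into mitosis, had 0.29 ± 0.06, 0.50 ± 0.06 and 0.43 ± 0.06, also all called. Without PNA-10b replicate 2 none of the 10 markers passed in PNA-10b, MKI67 and CDK1 included (0.27 and 0.22). Calls over all genes tested went from 1019 to 306 in that fit. MKI67 was also lost in PNA-10b without PNA-10b replicate 1 (0.21) or Control replicate 1 (0.23), and CDK1 without Control replicate 3 (0.23). The part of cell cycle stage in the kinesin values was not tested.

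Of 15 tested partners of mitotic kinesins, 10 rose with PNA-10b, 13 with PNA-21 and 14 with PNA-10b+21, with none lower and medians of 0.28, 0.37 and 0.37. The shares of all genes tested that rose were 2.75%, 15.2% and 13.6%. Without PNA-10b replicate 2 the PNA-10b count was 3, without Control replicate 3 it was 4, and without PNA-10b replicate 1 or Control replicate 1 it was 6. Over all genes tested, the PNA-10b calls went from 1019 to 306 without PNA-10b replicate 2. AURKA, a spindle pole kinase, rose by 0.33 ± 0.06, 0.48 ± 0.06 and 0.58 ± 0.06 log2 units in PNA-10b, PNA-21 and PNA-10b+21. AURKB, the kinase of the chromosomal passenger complex, rose by 0.38 ± 0.08, 0.62 ± 0.08 and 0.62 ± 0.08, and its PNA-10b rise was lost without PNA-10b replicate 2 (0.35) or Control replicate 3 (0.33). Other subunits of that complex, INCENP and CDCA8, rose by 0.44 ± 0.06 and 0.48 ± 0.06 in PNA-10b+21. So did ECT2, the exchange factor that centralspindlin binds, at 0.37 ± 0.05. CENPE, the kinetochore motor outside the name pattern, rose by 0.26 ± 0.06, 0.22 ± 0.06 and 0.30 ± 0.06. Its calls in PNA-10b and PNA-21 were both lost without Control replicate 1 (0.23 and 0.20) and without Control replicate 3 (0.22 and 0.18), and that in PNA-10b also without PNA-10b replicate 2 (0.23).

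Promoters of the mitotic kinesins shared sequence features. The set was chosen by name and known mitotic role, so these features are not independent of the choice. RefSeq promoters (GRCh38.p14, 250 bases before to 50 after the start) were matched for 31 of 40 genes, 12 mitotic and 19 other. They were searched on both strands for TTTGAA, a core of the cell cycle genes homology region through which the DREAM and MuvB complexes act, and for CCAAT, the box bound by NF-Y. TTTGAA was present in 9 of 12 mitotic promoters (75.0%) and 2 of 19 others (10.5%), against 10.0% of the 10406 promoters of tested genes and 15.4% of all 27305 promoters. CCAAT was present in 10 of 12 (83.3%) and 7 of 19 (36.8%), against 36.4% and 35.7%. Both motifs occurred together in 66.7% of mitotic promoters, 10.5% of the others, 4.16% of tested genes and 6.08% of all. An E2F motif, TTTCCCGC or TTTGGCGC, was present in 1 of 12 mitotic promoters (8.33%), that of KIF15, and in 0 of 19 others, against 3.66% and 2.31%. A match of letters is a description and not evidence that a factor binds.

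The stretch of 100 bases before to 50 after the start is shown for motors with and without these motifs, with every match in capitals, read 5′ to 3′ on the gene's strand. A TTTGAA on the opposite strand appears as TTCAAA, and a CCAAT there appears as ATTGG. Windows are KIF18B at chr17:44947724-44947873 (minus strand), KIF23 at chr15:69414249-69414398, KIF4A at chrX:70290004-70290153, KIF11 at chr10:92593030-92593179 and KIF15 at chr3:44761694-44761843, the last 4 on the plus strand:
KIF18B: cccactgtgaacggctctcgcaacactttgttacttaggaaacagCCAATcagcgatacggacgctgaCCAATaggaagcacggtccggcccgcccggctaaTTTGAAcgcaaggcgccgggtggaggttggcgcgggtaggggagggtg
KIF23: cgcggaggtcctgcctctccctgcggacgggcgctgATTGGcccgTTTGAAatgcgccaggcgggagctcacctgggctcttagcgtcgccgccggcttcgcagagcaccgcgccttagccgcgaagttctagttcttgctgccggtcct
KIF4A: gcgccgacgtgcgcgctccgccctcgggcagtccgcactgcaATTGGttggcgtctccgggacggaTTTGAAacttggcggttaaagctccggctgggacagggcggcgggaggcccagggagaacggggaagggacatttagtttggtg
KIF11: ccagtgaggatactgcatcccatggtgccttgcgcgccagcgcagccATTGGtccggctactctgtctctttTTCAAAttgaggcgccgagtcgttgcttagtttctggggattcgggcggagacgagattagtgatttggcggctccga
KIF15: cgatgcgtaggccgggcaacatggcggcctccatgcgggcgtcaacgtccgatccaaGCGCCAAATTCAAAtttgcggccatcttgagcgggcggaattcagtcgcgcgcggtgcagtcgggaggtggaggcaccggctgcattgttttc
In KIF18B, KIF4A and KIF11 the CCAAT box lies upstream of TTTGAA by a short gap, and in KIF23 the pair is closer. KIF15 has no CCAAT, and its capitals hold an E2F match that runs directly into TTTGAA.

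KIF20A, KIF22 and KIF2C lacked TTTGAA. KIF20A and KIF2C are shown with KIF3C, a motor outside the mitotic set that also rose, at chr5:138179012-138179161 and chr1:44739737-44739886 (plus strand) and chr2:25982448-25982597 (minus strand):
KIF20A: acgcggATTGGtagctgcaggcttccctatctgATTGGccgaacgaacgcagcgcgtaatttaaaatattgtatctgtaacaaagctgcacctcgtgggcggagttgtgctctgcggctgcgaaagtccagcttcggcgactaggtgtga
KIF2C: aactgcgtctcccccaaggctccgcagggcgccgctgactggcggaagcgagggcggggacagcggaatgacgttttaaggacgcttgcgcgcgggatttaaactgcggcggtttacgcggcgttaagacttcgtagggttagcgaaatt
KIF3C: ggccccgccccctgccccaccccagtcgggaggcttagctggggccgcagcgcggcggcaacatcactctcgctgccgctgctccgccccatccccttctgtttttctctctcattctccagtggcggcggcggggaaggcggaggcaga
KIF20A carries CCAAT boxes at -94 and -67 from the start, and neither KIF2C nor KIF3C holds a match. A related letter string, TTTAAA, was searched after these promoters had been read, so its matches are not independent of that reading. It occurs in KIF20A at -41 and in KIF2C at -3, but not in KIF22. Matches farther upstream lie in KIF14 (-198) and KIF23 (-211), and in KIF16B (-241) of the other set. It occurs in 7.97% of promoters of tested genes. Of the 3 genes without TTTGAA, KIF2C and KIF22 rose in all 3 treated groups and KIF20A in none. RefSeq starts lay within 200 bases of the annotated gene start for 22 of the 31 genes. Of those printed here, the KIF20A, KIF3C and KIF23 starts lay 393, 252 and 103 bases inside it. The KIF11 and KIF18B starts lay outside it, at -156 and -62. The windows of these genes do not cover the annotated gene start. The KIF5C start is 72625 bases inside the gene, so its promoter is not shown, although it is among the 31 counted. That of KIF24, also counted and holding CCAAT matches, lies outside the annotated gene, at -17897.

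**Figure D3:**
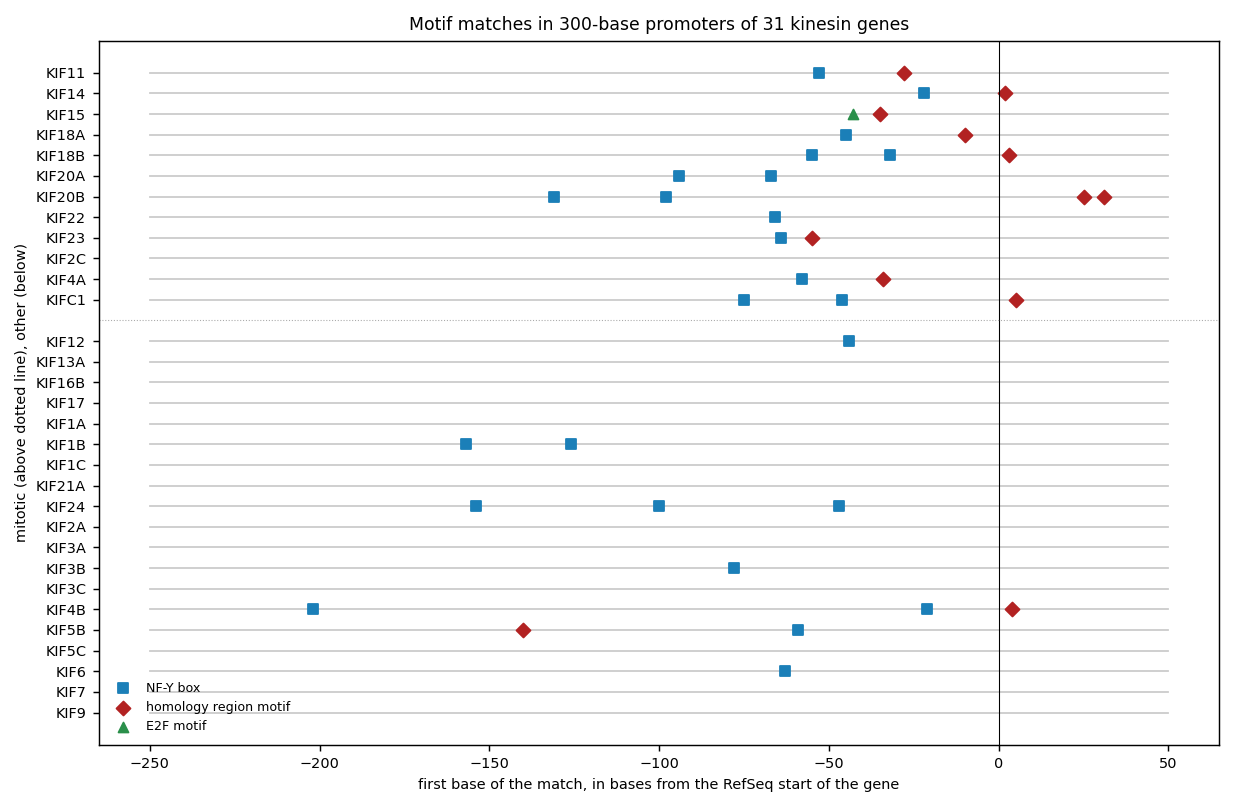
First base of each motif match in the 300-base RefSeq promoters of 31 kinesin genes, 1 row per gene, mitotic above the dotted line, with marker shapes for the homology region motif, the NF-Y box and E2F. A homology region motif is seen in 9 of the 12 mitotic rows, with an NF-Y box upstream of it in 8. Among the 19 other rows it is seen in 2, KIF4B with a box upstream of it and KIF5B with a box downstream.

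Kinesins outside the mitotic set moved in both directions in the groups given sgPNA-21. Of 24 tested, edgeR called 0 in PNA-10b, with 4 at an unadjusted p under 0.05 and 0 by DESeq2. Over all 15715 genes tested, 3235 had an unadjusted p under 0.05 in that comparison. In PNA-21, 5 rose and 4 fell, and in PNA-10b+21, 5 rose and 2 fell, shares near the background given above. Median log2 fold changes were 0.03, 0.05 and 0.10 in PNA-10b, PNA-21 and PNA-10b+21. Without overlap, 6, 10 and 9 of the 24 lay above Control in those groups, and 0, 5 and 3 lay below. As shares of the 24, 25.0%, 41.7% and 37.5% lay above, while 11.0%, 21.5% and 20.3% of all genes tested did. Over all genes, 12.8%, 20.9% and 19.9% lay below.

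Of the conventional transport motors, KIF5B, the ubiquitous heavy chain, had the highest level per length of all kinesins, with 69.5 RPKM (CPM per kilobase of exon) over the 12 libraries, and log2 fold changes of 0.05 ± 0.05, 0.06 ± 0.05 and 0.04 ± 0.05, none called. Its paralogues, known chiefly as neuronal heavy chains, diverged. KIF5A had 90.7, 84.9 and 84.0 CPM in the PNA-10b libraries, 73.3, 74.7 and 76.9 CPM in the PNA-21 libraries and 73.7, 82.8 and 86.3 CPM in the PNA-10b+21 libraries, against 90.7, 90.2 and 99.4 CPM in the Control libraries. The PNA-21 libraries lay below every PNA-10b and Control library. KIF5A fell by 0.32 ± 0.06 log2 units in PNA-21 (edgeR adjusted p = 5.18e-04) and by 0.21 ± 0.06 in PNA-10b+21 (adjusted p = 0.0135). The PNA-10b+21 fall was lost without Control replicate 3 (-0.16) or PNA-10b+21 replicate 1 (-0.14), and PNA-10b alone stood at -0.11 ± 0.06, not called.

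KIF5C had 40.9, 42.0 and 49.2 CPM in the PNA-10b libraries, 51.9, 53.7 and 49.4 CPM in the PNA-21 libraries and 38.0, 37.1 and 46.3 CPM in the PNA-10b+21 libraries, against 40.4, 36.4 and 32.1 CPM in the Control libraries. PNA-21 was highest, without overlap with Control. KIF5C rose by 0.50 ± 0.09 log2 units in PNA-21 (edgeR adjusted p = 2.39e-04), and stood at 0.28 ± 0.09 in PNA-10b and 0.16 ± 0.09 in PNA-10b+21, neither called. The PNA-10b value passed without PNA-10b+21 replicate 3 (0.28). The KIF5C difference between PNA-10b+21 and PNA-10b was unlike that between PNA-21 and Control. The interaction, the PNA-10b+21 minus PNA-10b change less the PNA-21 minus Control change, was -0.63 ± 0.13 log2 units (95% interval -0.89 to -0.37, edgeR adjusted p = 0.0118). It passed under all 16 alternatives run, with values between -0.74 and -0.54. Control alone had no nanoparticles, so a carrier effect shared by the treated groups enters the interaction and cannot be told apart.

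Of the ciliary and vesicle motors that share the KIF3 name, KIF3A and KIF3B pair with KIFAP3 to build cilia. KIF3A had 51.0, 45.4 and 44.9 CPM with PNA-10b, 43.7, 43.1 and 43.6 CPM with PNA-21 and 44.9, 44.5 and 44.3 CPM with PNA-10b+21, and 49.5, 49.97 and 52.9 CPM in Control. All 6 libraries with sgPNA-21 lay below the Control libraries. KIF3A fell by 0.22 ± 0.06 in PNA-21 and by 0.19 ± 0.06 in PNA-10b+21. The fall in PNA-10b+21 was lost with DESeq2 (-0.18), with no filter on low counts (-0.18), and without PNA-10b+21 replicate 1 (-0.20), PNA-10b+21 replicate 2 (-0.19) or Control replicate 3 (-0.16). KIF3B fell by 0.18 ± 0.06 in PNA-21, a call lost without Control replicate 3 (-0.13), PNA-21 replicate 2 (-0.16) or PNA-21 replicate 3 (-0.16). KIFAP3 had log2 fold changes of -0.05, -0.16 and -0.16, none called. It passed in PNA-21 without Control replicate 2 (-0.22), and in PNA-10b+21 without Control replicate 2 (-0.22) or PNA-10b+21 replicate 2 (-0.20). KIF3C, an alternative partner of KIF3A described in neurons, went the other way, with 66.3, 67.1 and 62.5 CPM with PNA-10b, 77.4, 71.0 and 69.1 CPM with PNA-21 and 77.2, 72.9 and 74.8 CPM with PNA-10b+21, and 60.1, 60.6 and 61.3 CPM in Control. Its 6 values with sgPNA-21 all lay above Control, as did the 3 with PNA-10b. KIF3C rose by 0.26 ± 0.05 with PNA-21 and 0.31 ± 0.05 with PNA-10b+21 (edgeR adjusted p = 0.00129 and 2.65e-04).

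KIF21A, a motor that restrains microtubule growth at the cell cortex, had 34.6, 36.4 and 35.5 CPM in the PNA-10b libraries, 40.0, 38.6 and 40.7 CPM in the PNA-21 libraries and 42.2, 39.7 and 39.3 CPM in the PNA-10b+21 libraries, against 28.6, 32.3 and 33.0 CPM in the Control libraries. All 6 libraries with sgPNA-21 exceeded the Control libraries. KIF21A rose by 0.35 ± 0.06 with PNA-21 and 0.37 ± 0.06 with PNA-10b+21, with 0.18 ± 0.07 and no call in PNA-10b (edgeR adjusted p = 4.06e-04, 2.22e-04 and 0.106). Its relative KIF21B rose by 0.23 ± 0.08 in PNA-10b+21, a call lost with DESeq2 (0.23) and without PNA-10b+21 replicate 1 (0.18), PNA-10b+21 replicate 2 (0.24), Control replicate 1 (0.24) or Control replicate 3 (0.16). KIF2A, a depolymerase that also works at spindle poles although it stands outside the mitotic set, had 69.3, 67.5 and 66.2 CPM with PNA-10b, 73.1, 72.6 and 71.9 CPM with PNA-21 and 75.5, 73.5 and 74.9 CPM with PNA-10b+21, and 57.6, 64.3 and 65.3 CPM in Control. Treated and Control values did not overlap. KIF2A rose by 0.22 ± 0.05 with PNA-21 and 0.26 ± 0.05 with PNA-10b+21. Its exons overlap those of IPO11 on the same strand.

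KIFC3, a minus-end motor of epithelial junctions and vesicles, rose by 0.17 ± 0.06 with PNA-21 and 0.22 ± 0.06 with PNA-10b+21. The PNA-21 call was lost without Control replicate 3 (0.11), PNA-21 replicate 1 (0.13) or PNA-21 replicate 2 (0.18), and that in PNA-10b+21 without Control replicate 3 (0.16) or PNA-10b+21 replicate 3 (0.18). KIF13B, a cargo motor, fell by 0.20 ± 0.06 in PNA-21, a call lost without Control replicate 3 (-0.14), PNA-21 replicate 2 (-0.17) or PNA-21 replicate 3 (-0.19).

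**Figure D4:**
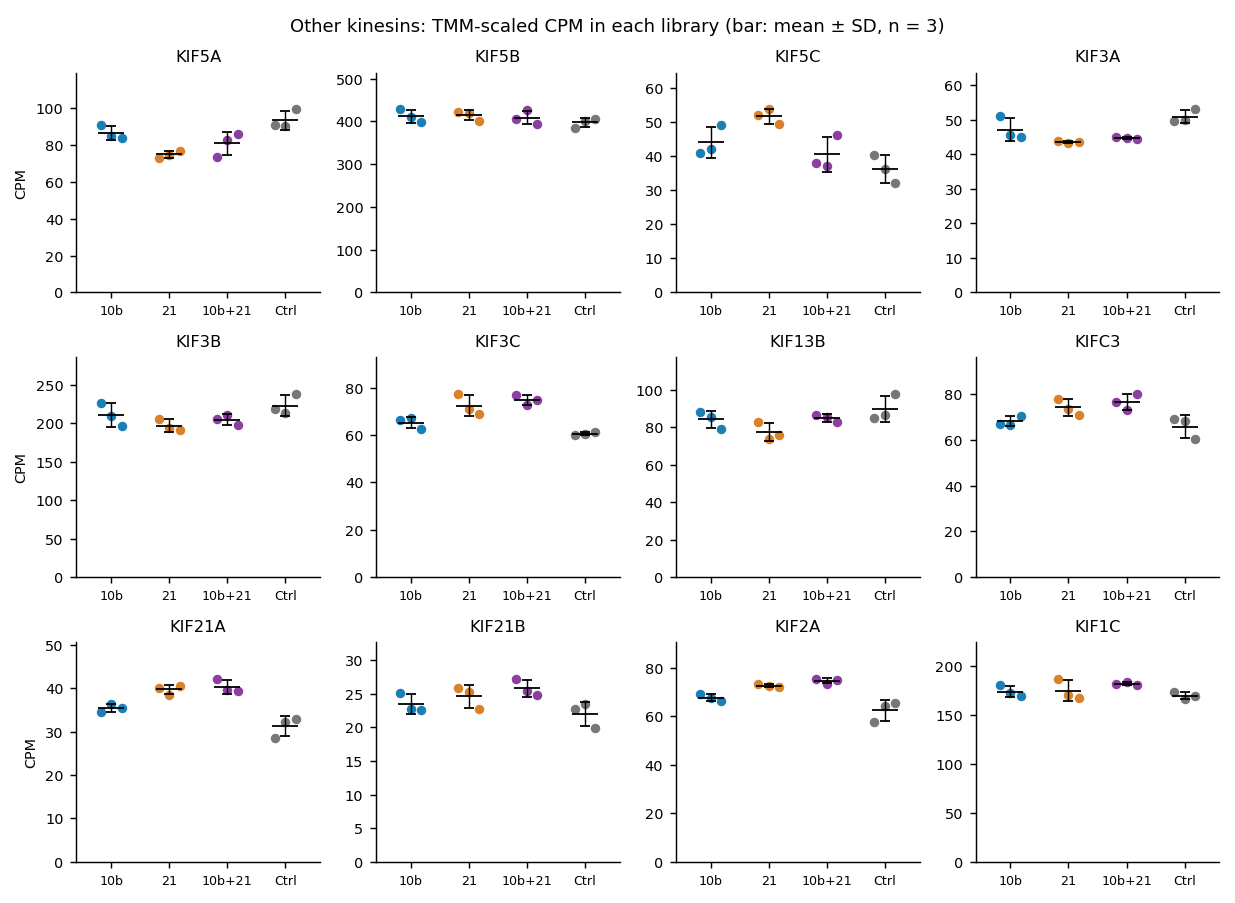
TMM-scaled CPM of 12 kinesins outside the mitotic set, 1 panel per gene, with a point for each library and a bar for the mean ± SD of 3 libraries. PNA-21 and PNA-10b+21 points lie above Control for KIF21A and KIF3C and below it for KIF5A and KIF3A, and KIF5C is highest in PNA-21.

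The remaining 14 tested kinesins were called in none of the 7 comparisons: KIF13A, KIF16B, KIF17, KIF1B, KIF1C, KIF24, KIF26B, KIF27, KIF4B, KIF5B, KIF6, KIF7, KIF9 and KIFC2. In PNA-10b+21 against Control their log2 fold changes ran from -0.64 ± 0.43 for KIF26B to 0.54 ± 0.24 for KIF6, both measured at few reads. The abundant ones stayed near 0: KIF1C and KIF1B, vesicle motors, were at 0.10 ± 0.05 and 0.09 ± 0.05, and KIF13A was at 0.01 ± 0.05. KIF6 passed there without PNA-10b+21 replicate 1 (0.80), and KIFC2 in PNA-10b without PNA-10b replicate 3 (-0.25). KIF7, a regulator of Hedgehog signalling at the cilium tip, was at 0.12 ± 0.05 (edgeR adjusted p = 0.0890). KIF4B is a near-identical intronless copy of KIF4A, so its 17 to 43 counts a library cannot be assigned with certainty.

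By level per length, KIF5B was followed by KIF3B at 34.2 RPKM, KIF20A at 33.5, KIF2C at 21.6, KIF1C at 20.4, KIF4A at 20.2, KIF23 at 19.8 and KIF11 at 19.3, as means over 12 libraries. In Control cells KIF5B stood at 67.6 ± 1.94 RPKM (SD, n = 3), apart from KIF3B at 36.5 ± 2.17 and KIF20A at 32.3 ± 1.44. KIF23 at 16.5 ± 1.06 and KIF11 at 16.3 ± 1.60 RPKM in Control lay within the SD of each other, with KIF4A just above them at 17.3 ± 0.65.

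Of 16 tested light chains, adaptors and inhibitors of kinesins, 2 rose and 3 fell in PNA-21 and 2 rose and 1 fell in PNA-10b+21. Over all genes tested, 15.2% rose and 14.6% fell in PNA-21, and 13.6% and 13.4% in PNA-10b+21, so these counts are near the background. In PNA-10b edgeR called 0, with 2 at an unadjusted p under 0.05, and DESeq2 called 1, CLSTN1 (-0.14). An unadjusted p under 0.05 was reached in PNA-10b by 3235 of the 15715 genes tested. The 3 falls in PNA-21 became 1 without Control replicate 3, 2 without PNA-21 replicate 2 and 5 without Control replicate 2. In PNA-10b+21 the 2 rises became 1 without PNA-10b+21 replicate 1 or Control replicate 2, and the 1 fall became 2 without PNA-10b+21 replicate 2 or Control replicate 2. KLC2, a cargo-binding light chain of the KIF5 motors, rose by 0.25 ± 0.05 with PNA-21 and 0.32 ± 0.05 with PNA-10b+21. CLSTN1, a membrane protein that links vesicles to those light chains, fell by 0.39 ± 0.05 in PNA-21 and by 0.32 ± 0.05 in PNA-10b+21. STARD9, the other motor outside the name pattern, fell by 0.21 ± 0.07 in PNA-21, a call lost with DESeq2 (-0.20) and without Control replicate 2 (-0.20), Control replicate 3 (-0.16), PNA-21 replicate 1 (-0.19) or PNA-21 replicate 3 (-0.19).

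**Figure D5:**
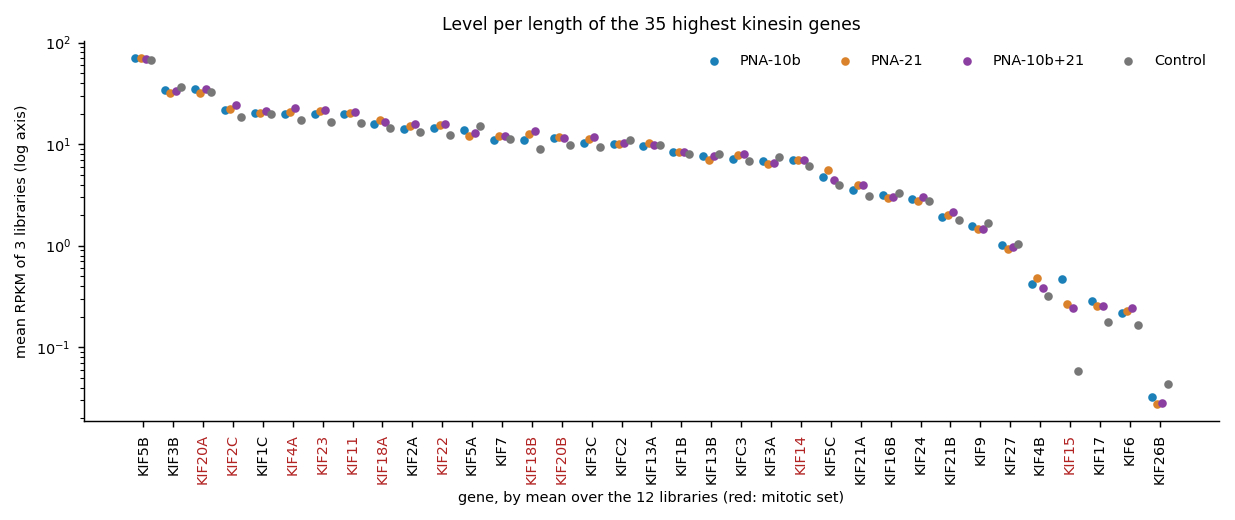
Mean RPKM of 3 libraries in each group, on a log axis, for the 35 kinesin genes of highest level, ordered by the mean over 12 libraries, with mitotic genes named in red. KIF5B leads at 69.5 RPKM, and mitotic kinesins hold 5 of the next 7 places.

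Between treated groups few kinesins differed. In PNA-10b+21 against PNA-10b, KIF18B was higher by 0.28 ± 0.07 log2 units (edgeR adjusted p = 0.0103) and KIF3C by 0.20 ± 0.05 (adjusted p = 0.0218), while 4.61% of all genes tested were higher and 5.1% lower. Both calls were lost without PNA-10b+21 replicate 1 (0.23 for KIF18B and 0.17 for KIF3C), and that of KIF3C also without PNA-10b replicate 3 (0.17). Without PNA-10b+21 replicate 3, KIF4A (0.25), KIF23 (0.21) and KIF2C (0.20) passed as well, and without PNA-10b replicate 1 KIF4A did (0.27). In PNA-21 against PNA-10b, KIF5A was lower at -0.21 ± 0.06 (edgeR adjusted p = 0.0425), against a background of 2.91% higher and 3.88% lower. That call was lost in 8 of the leave-one-out fits, with values from -0.23 to -0.17. No mitotic kinesin was called there by edgeR or DESeq2, with 2 at an unadjusted p under 0.05, and KIF18B (0.20) passed without Control replicate 3. Over all 15715 genes tested, 3411 had an unadjusted p under 0.05 in that comparison.

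Adding sgPNA-10b to sgPNA-21 gave no call. In PNA-10b+21 against PNA-21, edgeR called 0 of 35 kinesins and 0% of all genes tested in each direction, and DESeq2 called 0. At an unadjusted p under 0.05 there were 3 kinesins, 1 mitotic and 2 other, and 1354 genes in all. The change of KIF18B was 0.08 ± 0.07 with a 95% interval of -0.06 to 0.22, and that of KIF5C was -0.35 ± 0.09 (edgeR adjusted p = 0.266).

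For the mitotic kinesins the interaction was negative in 10 of 11 genes, with a median of -0.20 log2 units against 0.01 over all genes tested. None passed the edgeR test, DESeq2 called 0, and 7 had an unadjusted p under 0.05. Over all 15715 genes tested, 2933 had an unadjusted p under 0.05, while 1.48% were called higher and 1.64% lower. KIF11 had -0.27 ± 0.09 (edgeR adjusted p = 0.0839), with rises of similar size in PNA-10b, PNA-21 and PNA-10b+21. Without Control replicate 2, edgeR called KIF11 (-0.35), KIF18A (-0.27) and KIF20B (-0.35). All 11 values rest on the same 12 libraries and are not independent. A carrier effect shared by the treated groups would also enter them, since only Control had no nanoparticles, and it cannot be told apart.

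Seed matches were sought in the longest annotated 3′ UTR of each gene (GENCODE release 29). None of the 11 tested mitotic kinesins held the miR-21-5p match ATAAGCT, which 10.4% of 12237 tested genes held, or the miR-10b-5p match ACAGGGT, which 15.0% held. Of the 24 other kinesins, 2 held the first (8.33%) and 4 the second (16.7%), near those shares. The matches are shown with their surroundings and in capitals, for miR-21-5p on chromosomes 1 and 6 and then for miR-10b-5p on chromosomes 17, 1, 5 and 6:
KIF26B: ttttgacctaaATAAGCTgcaaacatgtt
KIF6: tgtagatctttATAAGCTtttgagaatgt
KIF1C: ttttttgggagACAGGGTcttgctttgtt
KIF26B: ttgttatcagaACAGGGTtcaggtggccc
KIF3A: cagcctgggtgACAGGGTgacactccacc
KIF6: tttttgtagagACAGGGTctcactgtgtg
KIF1C holds 2 matches, of which the first is shown. With sgPNA-21, KIF26B and KIF6 had log2 fold changes of -0.66 ± 0.43 and 0.45 ± 0.24, neither called. With sgPNA-10b, KIF1C had 0.04 ± 0.05, KIF26B -0.48 ± 0.42, KIF3A -0.11 ± 0.06 and KIF6 0.39 ± 0.24, none called. No kinesin that rose against Control carried ATAAGCT or ACAGGGT in this UTR. With so few genes and such shares over all tested genes, nothing about targeting is read from that absence, and targeting was not tested. Shorter seed matches were not sought.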

How the data were processed

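The authors deposited 1 table of raw gene counts for the 12 libraries. Every value is a whole number. Per the labels' protocols, libraries were made with the TruSeq Stranded mRNA kit from total RNA. The submitters' processing notes list HISAT2 2.1.0, SAMtools 1.7, HTSeq 0.11.0 and hg38. Neither the strand setting nor the annotation release of the counting is given in the sources used here. All columns matched a sample by name. The gene table was joined to GENCODE release 29, which held 34564 of its 35741 genes and all 40 kinesins.

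Genes were kept with filterByExpr at a minimum count of 10, which left 15715 genes and 99.84% of counts. A quasi-likelihood model with 4 group means was fitted to the 12 libraries together (edgeR 4.0.16, R 4.3.3, TMM scaling, Benjamini-Hochberg adjustment over all genes tested). There were 7 comparisons, namely 3 with Control, 3 between treatments and the interaction. Standard errors were derived from the fold change and its F statistic. The computation was tested on simulated data. Levels per length (RPKM) divide CPM by merged exon length, and total counts limit precision through counting error, which intervals at zero counts cover alone. A floor is 3 counts.

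The kinesin genes, gene lists and tests were chosen with earlier results of these data known. The text names all mitotic kinesins, every other kinesin called in at least 1 comparison, the uncalled ones with their range, and at most 6 genes per list by smallest p in PNA-10b+21 against Control. Alternatives were RLE size factors, no filter on low counts, DESeq2 1.42.0, the 6 libraries of a pair alone, the replicate number as a block, and leaving out each library. Replicate pairs differed by 2.66 to 5.3 times the counting noise (chi-square per degree of freedom), so no library was counted as a duplicate.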

Additional observations from a re-analysis of the deposited data

Results flagged for a closer look

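For KIF5C, a heavy chain of conventional kinesin known from neurons, the change with sgPNA-21 over PNA-10b differed from that over Control. On top of sgPNA-10b the log2 change was -0.12, and against Control it was 0.50, so the interaction was -0.63 (edgeR adjusted p = 0.0118). The median CPM was 42.0 with PNA-10b, 51.9 with PNA-21 and 38.0 with PNA-10b+21, against 36.4 in Control. No other kinesin passed that test. Because only Control lacked nanoparticles, carrier and sequence effects cannot be told apart in the interaction.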

How the results depend on the processing

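No direction of a called count or gene reversed under any alternative. With no filter on low counts, edgeR called 1 other kinesin in PNA-10b against Control, 3 mitotic kinesins in PNA-10b+21 against PNA-10b, 1 other kinesin (KIF5C) and 332 genes in PNA-10b+21 against PNA-21, 2 mitotic and 2 other kinesins in PNA-21 against PNA-10b, and 3 mitotic kinesins and 1074 genes in the interaction. KIF15 is among these mitotic calls, at -0.99 in both comparisons with PNA-10b and -2.93 in the interaction. It was also called against Control without the filter, although its replicates are too uneven for a direction. The cause of these added calls was not tested. With only the 6 libraries of the pair, 48 genes were called in PNA-10b+21 against PNA-21 and 1 mitotic kinesin in PNA-21 against PNA-10b. Replicate numbers did not pair the samples: 1 of 18 same-number correlations exceeded 0.1 (range -0.0577 to 0.109), and a library correlated best with its own number in 16 of 36 cases. With the replicate block the count was 3 mitotic kinesins in PNA-10b+21 against PNA-10b and 1 in the interaction. Where no count of all genes is given for a fit in this paragraph, its kinesin counts are not set against a background.

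Leaving out 1 library gave the following lowest and highest counts, for mitotic kinesins, other kinesins and all genes. PNA-10b against Control gave 0 to 7, 0 to 1 and 306 to 1252. PNA-21 against Control gave 7 to 9, 6 to 9 and 3408 to 4724. PNA-10b+21 against Control gave 6 to 10, 3 to 7 and 2748 to 4293. PNA-10b+21 against PNA-10b gave 0 to 4, 0 to 1 and 532 to 1687. PNA-21 against PNA-10b gave 0 to 1, 0 to 1 and 545 to 1166. The interaction gave 0 to 3, 1 to 1 and 92 to 1028. PNA-10b+21 against PNA-21 gave 0 genes throughout. Few reads limit the precision for KIF17, KIF26B, KIF6 and KIF4B, and the spread between replicates that for KIF15.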

Other observations

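Dynein is the motor that walks opposite to most kinesins. Of 22 tested subunits and regulators of dynein and dynactin, 0 rose and 1 fell in PNA-10b, 3 rose and 2 fell in PNA-21, and 3 rose and 1 fell in PNA-10b+21, by edgeR. Over all genes tested, 2.75% rose and 3.74% fell in PNA-10b, 15.2% and 14.6% in PNA-21, and 13.6% and 13.4% in PNA-10b+21, so these counts are near or below the background. In PNA-10b, 2 had an unadjusted p under 0.05 and DESeq2 called 0 higher and 1 lower. Over all 15715 genes tested, 3235 had an unadjusted p under 0.05 in PNA-10b. The 3 rises in PNA-10b+21 became 0 without PNA-10b+21 replicate 1 or PNA-10b+21 replicate 2, and 1 when any single Control library was left out. NUMA1, which anchors dynein at the spindle poles, fell by 0.26 ± 0.05 log2 units with PNA-10b, 0.34 ± 0.05 with PNA-21 and 0.30 ± 0.05 with PNA-10b+21.

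Of 9 tested tubulins, 1 rose in PNA-10b, 3 rose and 2 fell in PNA-21, and 5 rose and 2 fell in PNA-10b+21, against the same shares of all genes. The rise in PNA-10b, of TUBB6, was lost without PNA-10b replicate 2 (0.21) or Control replicate 3 (0.20), and TUBG1 passed there without PNA-10b+21 replicate 3 (0.19). TUBG1, the gamma-tubulin of centrosomes that nucleates microtubules, rose by 0.38 ± 0.06 in PNA-21 and 0.41 ± 0.06 in PNA-10b+21. TUBA1A, an alpha-tubulin prominent in neurons, fell by 0.27 ± 0.06 and 0.30 ± 0.06 in the same groups. Alpha-tubulin genes are close in sequence, so reads may be shared between them.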
